A study of Homo sapiens with 9 samples.

Results

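The DNAJ family, also called HSP40, comprises the co-chaperones that carry a J domain, and 44 of the 27059 genes in the deposited table belong to it here. Members are the rows whose symbol begins with DNAJA, DNAJB or DNAJC and a number. Of 46 such rows, the antisense entry DNAJC27-AS1 and the pseudogene DNAJB3 were left out, which leaves 4 DNAJA, 11 DNAJB and 29 DNAJC genes. One of them is the readthrough entry DNAJC25-GNG10, which shares reads with DNAJC25. Sequenced RNA came from PC9/GR cells, human lung adenocarcinoma cells that resist gefitinib, a drug against the EGF receptor, in 9 libraries. The labels name 3 groups of 3 libraries each: cells with the hairpin sh1-HUMT, cells with the hairpin sh2-HUMT, both designed to knock down the long noncoding RNA HUMT, and cells with the control hairpin shNC. All 3 groups share the resistant background, the same serum-containing medium and the presence of a hairpin, and no label states whether a group is 1 clone or a pool, or whether replicates are separate cultures. P-values therefore measure the spread between these libraries, which may be technical. Headers in the table read A549 (a different lung line) and Si, whereas the labels give PC9/GR and sh; the labels were followed.

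Levels within a gene are given as CPM, estimated counts scaled to library size, as mean ± SD with n = 3. Differences are log2 fold changes of a hairpin group over shNC from edgeR, and a gene is called when its Benjamini-Hochberg adjusted p over 18540 genes is under 0.05. Library totals ran from 21891060 to 22159921 estimated counts. HUMT, listed as a synonym of LINC00857, did not pass the test in either hairpin group, at 9.17 to 10.1 CPM in libraries labelled sh1-HUMT and 8.499 to 9.596 CPM in those labelled sh2-HUMT, against 8.51 to 9.85 CPM in shNC libraries, so each direction below is a difference between libraries as labelled. Epithelial markers summed to 2810.1 to 2978 CPM in sh1-HUMT and 2923 to 2948 CPM in sh2-HUMT, against 3296 to 3482 CPM in shNC libraries. Most of that sum is KRT8 and KRT18, and CDH1 on the same list was called higher in both comparisons, at 0.33 and 0.32 (edgeR adjusted p = 1.04e-05 and 1.26e-05). The lung lineage marker NKX2-1 averaged at most 0.1497 CPM in any group. Sums of fibroblast markers were 20.9 to 22.1 and 23.9 to 25.3 CPM against 15.5 to 19.4 CPM, mostly COL1A1, with DCN at 0 in both hairpin groups. Immune markers, 2 of 3 of them in the table, summed to 11.8 to 13.5 and 13.2 to 14.9 CPM against 11.3 to 12.99 CPM, nearly all of it CD14, and endothelial markers to 1.35 to 2.37 and 2.06 to 2.49 CPM against 1.03 to 1.57 CPM. The part of these markers in the results was not tested, and in bulk RNA fewer cells of a type and less RNA per cell cannot be told apart.

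A J domain binds an HSP70 chaperone and stimulates its ATP hydrolysis, which locks HSP70 onto the client protein that the J protein brings. DNAJA proteins follow the bacterial DnaJ layout with a zinc finger, DNAJB proteins lack the zinc finger but keep a glycine-rich stretch, and DNAJC proteins share little beyond the J domain and do specialised work in the endoplasmic reticulum, mitochondria, vesicles or nucleus. Some members are classical targets of the heat shock factor HSF1, and others are induced when unfolded proteins build up in the endoplasmic reticulum.

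DNAJB1, DNAJA1 and DNAJB4, 3 of the 4 heat-inducible members of the cytosol, and all 4 unfolded protein response members of the endoplasmic reticulum fell in both hairpin groups, while most other members, among them the heat-inducible DNAJA4, did not pass the test. Of the 44 members 42 were abundant enough to be tested. In sh1-HUMT libraries 14 of them (33.3%) were called lower and 2 higher, against a background of 16.3% of all genes called lower and 15.7% higher (31.9% in all). In sh2-HUMT libraries 14 (33.3%) were called lower and 1 higher, against a background of 16.5% and 15.9% (32.5% in all). This background was not matched for abundance, and smaller changes can be called at higher counts. More than 500 counts in every library were reached by 25 of the 42 tested members and by 7087 of all 18540 genes tested. Of the 34 tested members outside the heat-inducible and unfolded protein response sets, 7 (20.6%) were called lower in each comparison, nearer that background. Those sets were drawn up with earlier results of these data known, so this split is a description and no separate support. Both comparisons share the shNC libraries, so lowered levels in the hairpin groups and raised levels in shNC cannot be told apart. Words such as fell, fall and rise here give levels against shNC only. In both comparisons 12 members were called lower and 1 higher, where 12.8% and 12.3% of all genes were. Another 24 members were called in neither, and none was called in opposite directions. The median log2 fold change over the tested members was -0.13 in sh1-HUMT and -0.12 in sh2-HUMT, with medians of all genes tested of -0.0012 and -9.96e-05.

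By subfamily, 2 of 4 DNAJA genes were called lower in sh1-HUMT and 1 in sh2-HUMT, with median log2 fold changes of -0.28 and -0.11. The sh1-HUMT median lies between DNAJA3 at -0.25 and DNAJA4 at -0.30, and DNAJA4 had only 11 to 25 counts a library. The DNAJA median in sh1-HUMT was -0.44 without sh1-HUMT replicate 2 and -0.16 without sh1-HUMT replicate 3, and that in sh2-HUMT was -0.069 without shNC replicate 1. Among 10 tested DNAJB genes 5 were called lower in each comparison, with medians of -0.28 and -0.37. The sh2-HUMT median lies between DNAJB11 at -0.38 and DNAJB13 at -0.36, and DNAJB13 had only 4 to 13 counts a library. The 28 tested DNAJC genes held 7 and 8 calls lower and 2 and 1 calls higher, with medians of -0.10 and -0.09 (-0.054 in sh2-HUMT without sh2-HUMT replicate 1). By place of work, 7 and 9 of 16 cytosolic and nuclear members were called lower, 5 and 5 of 10 in the endoplasmic reticulum and 2 and 0 of 5 in mitochondria. No vesicle member and no member without a sure compartment was called lower. Of all genes tested, 16.3% and 16.5% were called lower and 15.7% and 15.9% higher in sh1-HUMT and sh2-HUMT.

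**Figure D1:**
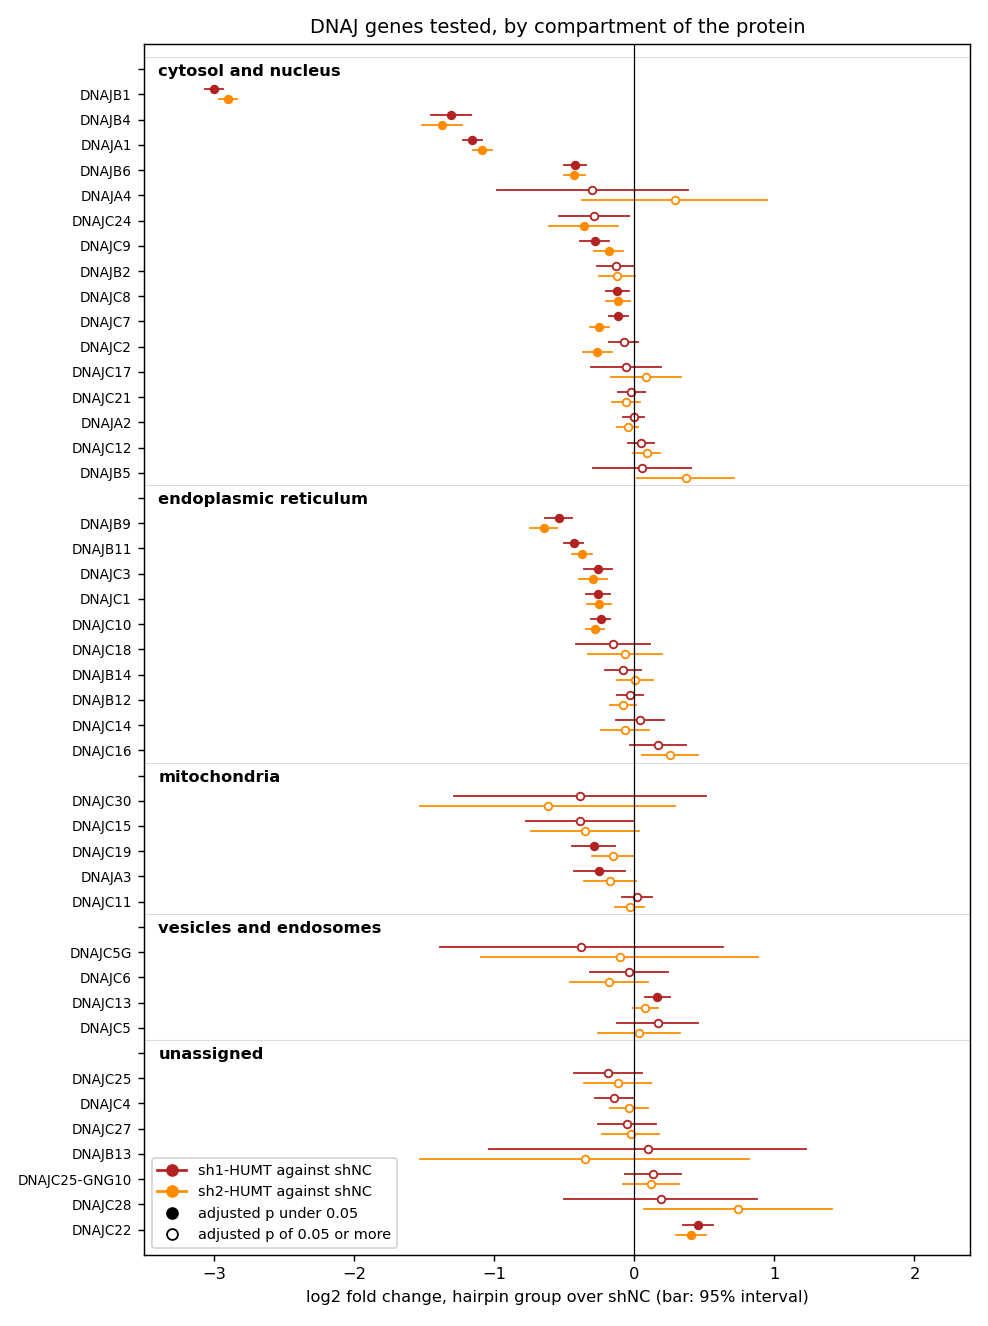
Log2 fold change of each tested DNAJ gene in sh1-HUMT (red) and sh2-HUMT (orange) libraries over shNC, grouped by compartment, with 95% intervals over n = 3 libraries a group; filled points have an edgeR adjusted p under 0.05. DNAJB1, DNAJB4 and DNAJA1 stand below -1 in both comparisons, and DNAJC22 is the one gene called higher in both.

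The largest falls of the family were those of 3 of its 4 heat-inducible cytosolic members, DNAJB1, DNAJB4 and DNAJA1. DNAJB1, the main stress-induced HSP40 of the cytosol and a partner of HSP70 in disaggregation, stood at 91.98, 90.5 and 87.3 CPM in sh1-HUMT libraries and 99.2, 94.3 and 96.3 CPM in sh2-HUMT libraries, against 722, 712 and 729.9 CPM in shNC libraries. All 6 hairpin libraries lay far below all 3 shNC libraries, with group levels of 89.9 ± 2.41 and 96.6 ± 2.47 against 721 ± 8.88 CPM. DNAJB1 was 8.02-fold lower in sh1-HUMT and 7.47-fold lower in sh2-HUMT libraries, log2 fold changes of -3.004 (95% interval -3.07 to -2.94, edgeR adjusted p = 4.75e-15) and -2.90 (95% interval -2.96 to -2.84, edgeR adjusted p = 6.66e-15). Its gene overlaps TECR, which was not called in either comparison, at log2 fold changes of -0.02 and -0.01.

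DNAJA1, a zinc-finger HSP40 that delivers clients to the constitutive HSC70, stood at 102, 103 and 103 CPM in sh1-HUMT libraries and 109, 109 and 106 CPM in sh2-HUMT libraries, against 229, 222 and 238 CPM in shNC libraries. The hairpin libraries kept within a narrow band below every control, and the level was 2.23-fold lower in sh1-HUMT and 2.12-fold lower in sh2-HUMT. Log2 fold changes were -1.16 in sh1-HUMT libraries (SE 0.030, edgeR adjusted p = 8.57e-11) and -1.09 in sh2-HUMT libraries (SE 0.030, edgeR adjusted p = 1.47e-10). DNAJB4, a cytosolic HSP40 closely related to DNAJB1, stood at 25.3, 22.5 and 26.1 CPM in sh1-HUMT libraries and 21.7, 22.99 and 25.9 CPM in sh2-HUMT libraries, against 62.6, 60.3 and 60.2 CPM in shNC libraries. No hairpin library of DNAJB4 reached a control library, and its log2 fold changes were -1.31 in sh1-HUMT libraries (SE 0.066, edgeR adjusted p = 3.78e-08) and -1.38 in sh2-HUMT libraries (SE 0.066, edgeR adjusted p = 2.06e-08). FUBP1, which overlaps DNAJB4, was not called, at -0.09 and -0.03. DNAJB1, DNAJA1 and DNAJB4 were the 3 members at least 2-fold lower in both comparisons, where 1.11% and 1.04% of all genes tested were called and at least 2-fold lower in sh1-HUMT and sh2-HUMT.

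DNAJA4, another zinc-finger member, was barely detected, at 0.623, 0.854 and 0.492 CPM in sh1-HUMT libraries and 1.12, 0.996 and 0.8499 CPM in sh2-HUMT libraries, against 0.894, 0.783 and 0.752 CPM in shNC libraries. Those levels rest on 11 to 25 counts a library, the groups overlapped, and log2 fold changes of -0.30 (95% interval -0.98 to 0.38) and 0.29 (95% interval -0.37 to 0.95) did not pass the test, so a difference was not detectable at this depth. DNAJA2, the abundant zinc-finger member that works beside DNAJA1 with HSC70, was not called either, at 61.98 ± 0.775 and 60.2 ± 1.17 against 62.2 ± 1.22 CPM. Its 95% intervals of -0.081 to 0.069 and -0.12 to 0.027 on the log2 scale exclude a fall of the size seen for DNAJA1.

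**Figure D2:**
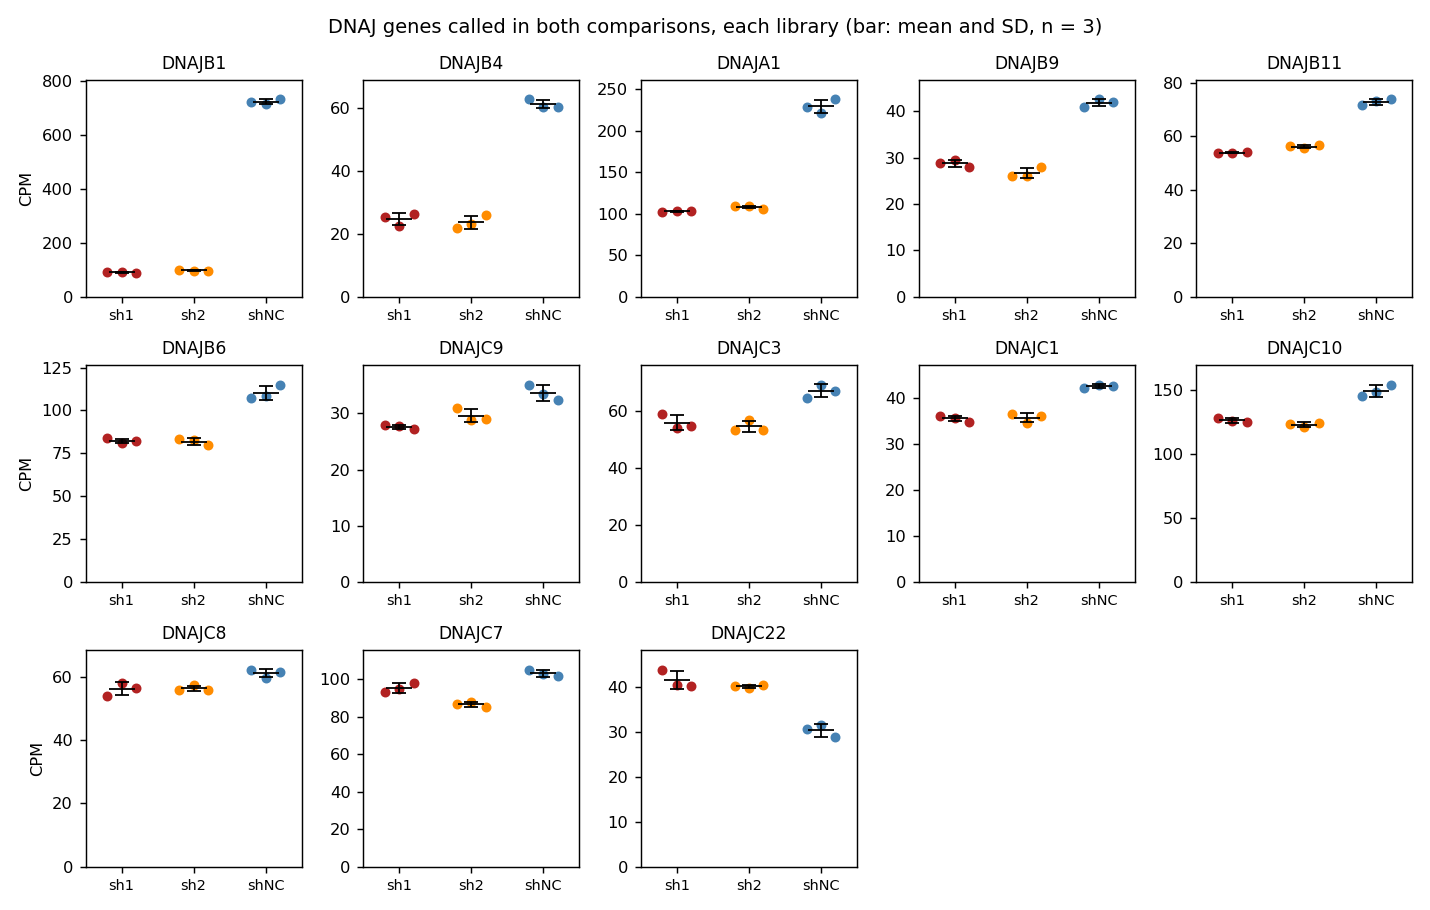
CPM of the 13 DNAJ genes called in both comparisons, one point per library in the order sh1-HUMT, sh2-HUMT and shNC, with mean and SD of n = 3; each axis starts at 0. In the 12 genes called lower every hairpin library lies below every shNC library, and in DNAJC22 every hairpin library lies above. The genes were picked by those calls, so this separation is no separate support for them.

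Promoter letters of the heat shock element, the inverted repeat that HSF1 binds, were looked for in RefSeq windows of 250 bases before to 50 bases after each annotated start, because DNAJB1, DNAJA1 and DNAJB4 are textbook HSF1 targets. A 2-unit element was taken as GAANNTTC or TTCNNGAA and a 3-unit element as GAANNTTC followed by NNGAA or TTCNNGAA followed by NNTTC, on both strands, so that each 3-unit element contains 2-unit ones. Windows were found for 40 of the 44 members, 52 windows in all. The 4 windows below are those of DNAJB1, DNAJA1, DNAJB4 and DNAJB6 that hold an element (for DNAJB1, the one of its windows with the most), shown 5′ to 3′ on the gene's strand with the element in capitals. All 4 genes were called lower in both comparisons, and windows of members with an element that were not so called are not printed.
DNAJB1 promoter window, GRCh38.p14, chr19:14518348-14518647, minus strand: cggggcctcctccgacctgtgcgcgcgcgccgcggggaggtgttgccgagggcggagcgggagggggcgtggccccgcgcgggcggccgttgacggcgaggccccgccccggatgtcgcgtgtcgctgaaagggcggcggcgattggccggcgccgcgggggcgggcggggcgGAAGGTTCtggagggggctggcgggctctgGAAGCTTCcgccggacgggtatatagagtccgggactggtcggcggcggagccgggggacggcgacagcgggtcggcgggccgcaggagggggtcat
DNAJA1 promoter window, GRCh38.p14, chr9:33025023-33025322, plus strand: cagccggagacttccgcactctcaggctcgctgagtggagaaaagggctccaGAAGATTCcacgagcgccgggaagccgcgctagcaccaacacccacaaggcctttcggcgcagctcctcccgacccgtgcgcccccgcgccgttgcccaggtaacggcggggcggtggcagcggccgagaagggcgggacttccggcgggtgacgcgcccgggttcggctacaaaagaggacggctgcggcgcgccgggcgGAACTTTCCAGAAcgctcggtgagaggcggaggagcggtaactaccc
DNAJB4 promoter window, GRCh38.p14, chr1:78004689-78004988, plus strand: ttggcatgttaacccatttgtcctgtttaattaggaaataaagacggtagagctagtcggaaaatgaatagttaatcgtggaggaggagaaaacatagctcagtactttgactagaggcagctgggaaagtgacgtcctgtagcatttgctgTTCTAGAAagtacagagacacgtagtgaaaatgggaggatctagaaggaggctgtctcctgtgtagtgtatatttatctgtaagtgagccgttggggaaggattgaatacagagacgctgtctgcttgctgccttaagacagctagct
DNAJB6 promoter window, GRCh38.p14, chr7:157336754-157337053, plus strand: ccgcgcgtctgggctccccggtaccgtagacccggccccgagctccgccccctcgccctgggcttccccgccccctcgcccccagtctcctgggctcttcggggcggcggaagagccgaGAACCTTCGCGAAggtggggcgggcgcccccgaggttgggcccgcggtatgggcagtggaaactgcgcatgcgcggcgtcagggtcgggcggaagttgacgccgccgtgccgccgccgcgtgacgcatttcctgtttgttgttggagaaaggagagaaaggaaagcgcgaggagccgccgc

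The DNAJB1 window holds 2-unit elements that begin at -77 and -47 relative to the start, and a window at another annotated start of DNAJB1, not shown, holds one that begins at 1. That of DNAJA1 holds a 2-unit element at -198 and a 3-unit element that begins at 3, just past the start. DNAJB4 has a 2-unit element at -98 and DNAJB6 a 3-unit element at -131. The heat-inducible DNAJA4, which was not called, has 2-unit elements at -91 and -52. Among the members with a window, 8 had a 2-unit element (DNAJB1, DNAJA1, DNAJB4, DNAJB6, DNAJA4, DNAJB7, DNAJC6 and DNAJC15), against 16.2% of all 27305 genes with a window, and 2 had a 3-unit element, against 0.608%. Of the 7 tested members with a 2-unit element 4 were called lower in both comparisons (57.1%), and of the 32 tested members with a window but no element 7 were (21.9%). Those 4 include DNAJB1, DNAJA1 and DNAJB4, the genes that prompted the search, so these shares cannot be read as an association. Across all tested genes, 14.5% of 1856 genes with the 2-unit letters and 14.3% of 11372 genes without were called lower in both. The 3-unit letters stood in 61 tested genes, of which 18 (29.5%) were called lower in both and 6 higher in both. Of 13167 genes without, 14.3% were called lower in both. The 61 genes include DNAJB6 and DNAJA1, which prompted the search, and the difference between these shares was not tested. No member had the ER stress element (CCAAT and CCACG with 9 letters of any kind between), present in 0.0769% of all windows, and only DNAJC27 had the cyclic AMP response element TGACGTCA, present in 1.85%. These are matches of letters, and no binding was measured.

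**Figure D3:**
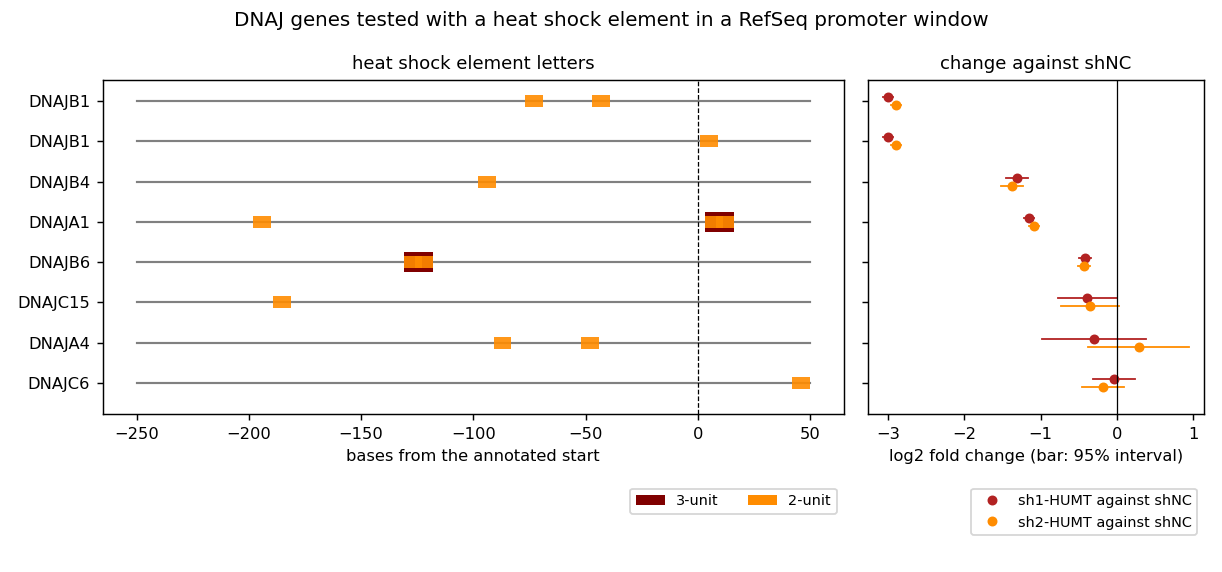
Left, heat shock element letters (orange 2-unit, dark red 3-unit) along RefSeq promoter windows of the 7 tested DNAJ genes that have any, in bases from the annotated start, with 1 line per window; right, log2 fold change of the gene over shNC in sh1-HUMT and sh2-HUMT libraries with 95% intervals. The 4 genes at the top were called lower in both comparisons, and DNAJC15, DNAJA4 and DNAJC6 in neither.

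Other cytosolic and nuclear members changed less. DNAJB6, which suppresses aggregation of polyglutamine proteins, stood at 83.7, 81.1 and 81.9 CPM in sh1-HUMT libraries and 83.4, 82.6 and 79.5 CPM in sh2-HUMT libraries, against 107, 108 and 115 CPM in shNC libraries. Its hairpin libraries were close to each other and below all controls, with log2 fold changes of -0.42 in sh1-HUMT libraries (SE 0.035, edgeR adjusted p = 3.00e-06) and -0.43 in sh2-HUMT libraries (SE 0.035, edgeR adjusted p = 2.56e-06). DNAJC7, a co-chaperone with TPR repeats that binds both HSP70 and HSP90, stood at 93.1, 94.7 and 98.1 CPM in sh1-HUMT libraries and 87.004, 87.8 and 85.2 CPM in sh2-HUMT libraries, against 105, 103 and 102 CPM in shNC libraries. Neither hairpin group overlapped the controls, and the log2 fold changes were -0.11 in sh1-HUMT libraries (SE 0.031, edgeR adjusted p = 0.01405) and -0.25 in sh2-HUMT libraries (SE 0.031, edgeR adjusted p = 7.04e-05). The sh1-HUMT call of DNAJC7 was lost after correction for GC content and length (-0.05, edgeR adjusted p = 0.206), without sh1-HUMT replicate 1 (edgeR adjusted p = 0.0610) and without shNC replicate 1 (edgeR adjusted p = 0.0686). CNP, which overlaps DNAJC7, was called higher, at 0.25 and 0.36, and reads of overlapping genes cannot be told apart where strand use is not stated. The same limit holds for DNAJC2, DNAJC9, DNAJC10 and DNAJC24, which overlap PMPCB, FAM149B1, PDE1A and IMMP1L.

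DNAJC9, a co-chaperone of histones H3 and H4, stood at 27.96, 27.7 and 27.2 CPM in sh1-HUMT libraries and 30.96, 28.8 and 29.1 CPM in sh2-HUMT libraries, against 35.1, 33.4 and 32.4 CPM in shNC libraries. The highest hairpin library was below the lowest control, and log2 fold changes were -0.28 in sh1-HUMT libraries (SE 0.047, edgeR adjusted p = 6.68e-04) and -0.18 in sh2-HUMT libraries (SE 0.047, edgeR adjusted p = 0.00999). The sh2-HUMT call of DNAJC9 was lost without sh2-HUMT replicate 2 (edgeR adjusted p = 0.0557) and without shNC replicate 1 (edgeR adjusted p = 0.0569). DNAJC8, a spliceosome-associated J protein, was called lower by a little, at 56.1 ± 2.07 and 56.3 ± 0.909 against 61.02 ± 1.28 CPM and log2 fold changes of -0.12 and -0.12 (edgeR adjusted p = 0.0307 and 0.0355). Of 18 alternatives, 7 for sh1-HUMT and 8 for sh2-HUMT kept the direction but lost the call (adjusted p up to 0.133 and 0.135), and 1 more, the correction for GC content and length, gave values of 0.020 and 0.016 that were not called.

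DNAJC2, a ribosome-associated J protein that helps fold nascent chains, stood at 48.6, 47.7 and 50.1 CPM in sh1-HUMT libraries and 39.9, 45.4 and 43.2 CPM in sh2-HUMT libraries, against 50.6, 51.8 and 52.2 CPM in shNC libraries. It was called lower in sh2-HUMT only, at -0.27 (SE 0.048, edgeR adjusted p = 0.00121), and was at -0.077 in sh1-HUMT (edgeR adjusted p = 0.252), where the libraries nonetheless lay just below the controls. DNAJC24, an enzyme cofactor of diphthamide synthesis, stood at 14.2, 15.1 and 11.2 CPM in sh1-HUMT libraries and 12.1, 13.8 and 12.4 CPM in sh2-HUMT libraries, against 16.2, 18.3 and 14.8 CPM in shNC libraries. Its sh2-HUMT libraries were below all controls and were called lower at -0.36 (SE 0.11, edgeR adjusted p = 0.0292), while the sh1-HUMT value of -0.29 was not called (edgeR adjusted p = 0.0747) and its libraries overlapped the controls. That sh2-HUMT call was lost in 5 of 18 alternatives, among them those without sh2-HUMT replicate 1 or 3 and without shNC replicate 1 or 2 (edgeR adjusted p up to 0.121), and the sh1-HUMT value was called without sh1-HUMT replicate 2 (-0.38, edgeR adjusted p = 0.0348). DNAJB2, DNAJB5, DNAJC12, DNAJC17 and DNAJC21 were called in neither comparison. DNAJC12, a co-chaperone of aromatic amino acid hydroxylases, was at 0.048 and 0.087, and after correction for GC content and length at 0.23 and 0.26, where it was called higher (edgeR adjusted p = 7.69e-04 and 2.79e-04).

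In the endoplasmic reticulum 5 of 10 members fell in both hairpin groups, among them all 4 that textbooks list as targets of the unfolded protein response. Of all genes tested 12.8% were called lower in both. DNAJB9 (ERdj4), which holds the stress sensor IRE1 in check, stood at 28.8, 29.5 and 28.02 CPM in sh1-HUMT libraries and 26.2, 25.98 and 28.001 CPM in sh2-HUMT libraries, against 41.03, 42.6 and 41.997 CPM in shNC libraries. Hairpin libraries were all well below the controls, and DNAJB9 had the largest fall among reticulum members, with log2 fold changes of -0.54 in sh1-HUMT libraries (SE 0.044, edgeR adjusted p = 2.46e-06) and -0.65 in sh2-HUMT libraries (SE 0.045, edgeR adjusted p = 4.92e-07). DNAJB11 (ERdj3), the soluble partner of the reticulum HSP70 called BiP, stood at 53.7, 53.9 and 53.98 CPM in sh1-HUMT libraries and 56.1, 55.5 and 56.5 CPM in sh2-HUMT libraries, against 71.6, 73.1 and 73.7 CPM in shNC libraries. Libraries within each group differed by little, and the log2 fold changes were -0.43 in sh1-HUMT libraries (SE 0.032, edgeR adjusted p = 1.10e-06) and -0.38 in sh2-HUMT libraries (SE 0.032, edgeR adjusted p = 3.50e-06).

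DNAJC3 (P58IPK), a lumenal co-chaperone that binds unfolded chains, stood at 58.99, 54.3 and 54.8 CPM in sh1-HUMT libraries and 53.6, 57.1 and 53.5 CPM in sh2-HUMT libraries, against 64.9, 69.4 and 67.3 CPM in shNC libraries. DNAJC10 (ERdj5), a disulfide reductase that helps clear misfolded proteins, was the most abundant reticulum member in CPM, at 128, 125 and 125 CPM in sh1-HUMT libraries and 123, 121 and 124 CPM in sh2-HUMT libraries, against 145, 148 and 154 CPM in shNC libraries. In neither gene did a hairpin library reach a control library. The log2 fold changes were -0.26 and -0.30 for DNAJC3 (edgeR adjusted p = 9.02e-04 and 3.62e-04) and -0.24 and -0.28 for DNAJC10 (edgeR adjusted p = 6.84e-05 and 1.95e-05). DNAJC1 (ERdj1), a membrane J protein that binds ribosomes, stood at 36.02, 35.6 and 34.8 CPM in sh1-HUMT libraries and 36.5, 34.6 and 35.9 CPM in sh2-HUMT libraries, against 42.1, 42.8 and 42.6 CPM in shNC libraries. It fell by a similar amount, with log2 fold changes of -0.26 in sh1-HUMT libraries (SE 0.039, edgeR adjusted p = 3.39e-04) and -0.25 in sh2-HUMT libraries (SE 0.039, edgeR adjusted p = 4.05e-04).

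The other reticulum members, DNAJB12, DNAJB14, DNAJC14, DNAJC16 and DNAJC18, were not called. DNAJB12 and DNAJB14, membrane proteins of reticulum-associated degradation, were at log2 fold changes of -0.031 and -0.079 and of -0.082 and 0.0036. DNAJC16, a membrane J protein, was at 17.8 ± 1.52 and 18.9 ± 1.32 against 15.9 ± 1.71 CPM, and its sh2-HUMT value of 0.26 lay at the threshold (edgeR adjusted p = 0.0502), being called higher in 10 of 18 alternatives, such as DESeq2 (adjusted p = 0.0380).

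Among the 5 mitochondrial members, calls appeared in sh1-HUMT libraries only, and the difference between the hairpin groups was not called for any of them. DNAJC19, a part of the inner membrane import motor, stood at 15.8, 17.4 and 16.5 CPM in sh1-HUMT libraries and 17.99, 18.6 and 18.03 CPM in sh2-HUMT libraries, against 21.1, 21.2 and 18.4 CPM in shNC libraries. Its sh1-HUMT libraries were below all controls and were called lower at -0.29 (SE 0.070, edgeR adjusted p = 0.006904), whereas the sh2-HUMT libraries overlapped the controls in CPM, at -0.15 (edgeR adjusted p = 0.112). In FPKM, scaled also to transcript length and not tested, DNAJC19 was at 11.7 ± 0.935 and 11.3 ± 0.632 against 14.5 ± 1.07 in shNC. On that scale neither hairpin group overlapped the controls. The correction for GC content and length took DNAJC19 to -0.13 in sh1-HUMT (edgeR adjusted p = 0.169), and without shNC replicate 3 it was called in sh2-HUMT as well (-0.21, edgeR adjusted p = 0.0383). DNAJA3, the mitochondrial zinc-finger partner of mortalin, was at 74.3 ± 9.13 and 78.3 ± 1.45 against 88.4 ± 6.19 CPM, with log2 fold changes of -0.25 and -0.18. Its sh1-HUMT call (edgeR adjusted p = 0.0441) was lost in 13 of 18 alternatives, at an adjusted p of up to 0.143, which includes every one without a library except that without sh1-HUMT replicate 2. DNAJC11, DNAJC15 and DNAJC30 were not called, and DNAJC30, tied to complex I upkeep, spread from 3.08 to 7.69 CPM within sh2-HUMT alone.

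DNAJC22, for which no compartment was assigned, was the one member higher in both hairpin groups. It stood at 43.9, 40.5 and 40.3 CPM in sh1-HUMT libraries and 40.3, 39.8 and 40.4 CPM in sh2-HUMT libraries, against 30.8, 31.5 and 28.8 CPM in shNC libraries. Every hairpin library was above every control, at 1.37-fold and 1.32-fold the shNC level, with log2 fold changes of 0.45 in sh1-HUMT libraries (SE 0.049, edgeR adjusted p = 2.52e-05) and 0.40 in sh2-HUMT libraries (SE 0.049, edgeR adjusted p = 5.95e-05). DNAJC13, which recycles cargo on endosomes (RME-8), was at 60.3 ± 2.22 and 56.9 ± 1.38 against 53.9 ± 1.705 CPM and was called higher in sh1-HUMT at 0.16 (edgeR adjusted p = 0.01005) but not in sh2-HUMT at 0.078 (edgeR adjusted p = 0.181). With the correction for GC content and length the sh1-HUMT value of DNAJC13 was 0.11 (edgeR adjusted p = 0.0517). The vesicle proteins DNAJC5, DNAJC5G and DNAJC6 and the remaining members without a compartment were not called. DNAJC25 and its readthrough entry DNAJC25-GNG10 were at -0.19 and -0.12 and at 0.13 and 0.12, and how their shared reads were divided is uncertain.

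The 2 members that were not tested were near the limit of detection. DNAJB7 had 1 to 3 counts in sh1-HUMT and 1 count in each sh2-HUMT library, against 0 to 4 counts in shNC libraries. DNAJC5B, a relative of the cysteine string protein, had 7 to 12 and 5 to 13 counts, against 3 to 6 counts.

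Set side by side per transcript length, the make-up of the family differed between the groups. Levels between genes are in FPKM, counts scaled to both transcript length and library size, from the authors' expression columns. Summed FPKM of the 44 members was 651, 659.95 and 649.7 FPKM in sh1-HUMT libraries and 655, 641 and 648 FPKM in sh2-HUMT libraries, against 1035, 1038 and 1038 FPKM in shNC libraries. All hairpin libraries were far below the controls. Without DNAJB1 the sum was 614 FPKM ± 5.81 in sh1-HUMT and 606 FPKM ± 6.26 in sh2-HUMT, against 726 FPKM ± 1.86 in shNC libraries, and without DNAJB1, DNAJA1 and DNAJB4 it was 545 FPKM ± 6.08 in sh1-HUMT and 534 FPKM ± 5.49 in sh2-HUMT, against 577 FPKM ± 4.78 in shNC libraries. DNAJB1 alone supplied 6.07% ± 0.199 in sh1-HUMT and 6.52% ± 0.105 in sh2-HUMT, against 30.002% ± 0.273 in shNC libraries of the family's FPKM.

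The DNAJB share of the family's FPKM was 25.8% ± 0.156 in sh1-HUMT and 26.4% ± 0.271 in sh2-HUMT, against 45.7% ± 0.502 in shNC libraries, and the DNAJC share was 56.1% ± 0.164 in sh1-HUMT and 54.8% ± 0.157 in sh2-HUMT, against 36.1% ± 0.619 in shNC libraries. The DNAJA share was similar throughout, at 18.05% ± 0.289 in sh1-HUMT and 18.8% ± 0.246 in sh2-HUMT, against 18.3% ± 0.403 in shNC libraries. Shares sum to a whole, so a lower share of one gene leaves higher shares of the others. Summed DNAJA levels themselves were lower, at 118 FPKM ± 2.75 in sh1-HUMT and 122 FPKM ± 1.59 in sh2-HUMT, against 189 FPKM ± 4.02 in shNC libraries. Summed DNAJB levels were 169 FPKM ± 0.557 in sh1-HUMT and 171 FPKM ± 3.59 in sh2-HUMT, against 473 FPKM ± 5.91 in shNC libraries. Summed DNAJC levels were 367 FPKM ± 2.93 in sh1-HUMT and 355 FPKM ± 3.28 in sh2-HUMT, against 374 FPKM ± 6.23 in shNC libraries. By compartment, cytosolic and nuclear members summed to 392 FPKM ± 4.07 in sh1-HUMT and 389 FPKM ± 5.97 in sh2-HUMT, against 751 FPKM ± 3.71 in shNC libraries, reticulum members to 141 FPKM ± 1.75 in sh1-HUMT and 139 FPKM ± 2.58 in sh2-HUMT, against 161 FPKM ± 2.66 in shNC libraries, and mitochondrial members to 58.02 FPKM ± 4.52 in sh1-HUMT and 57.4 FPKM ± 0.588 in sh2-HUMT, against 64.8 FPKM ± 1.86 in shNC libraries.

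Ranked by mean FPKM, DNAJB1 was number 6 in sh1-HUMT and number 3 in sh2-HUMT libraries, against number 1 in shNC libraries. DNAJA1 was number 1 in both hairpin groups and number 2 in shNC, and DNAJC12 number 2 in both and number 3 in shNC. DNAJB4 was number 26 in sh1-HUMT and number 27 in sh2-HUMT, against number 14 in shNC. Neighbours in this order often lay within their spread: in sh2-HUMT libraries DNAJB1, DNAJC8 and DNAJC7 were at 42.3 ± 1.17, 41.6 ± 0.4203 and 41.6 ± 0.295 FPKM. The 5 lowest levels in each group belonged to DNAJB7, DNAJA4, DNAJC5G, DNAJB13 and DNAJC5B, with group means of at most 0.25 FPKM.

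**Figure D4:**
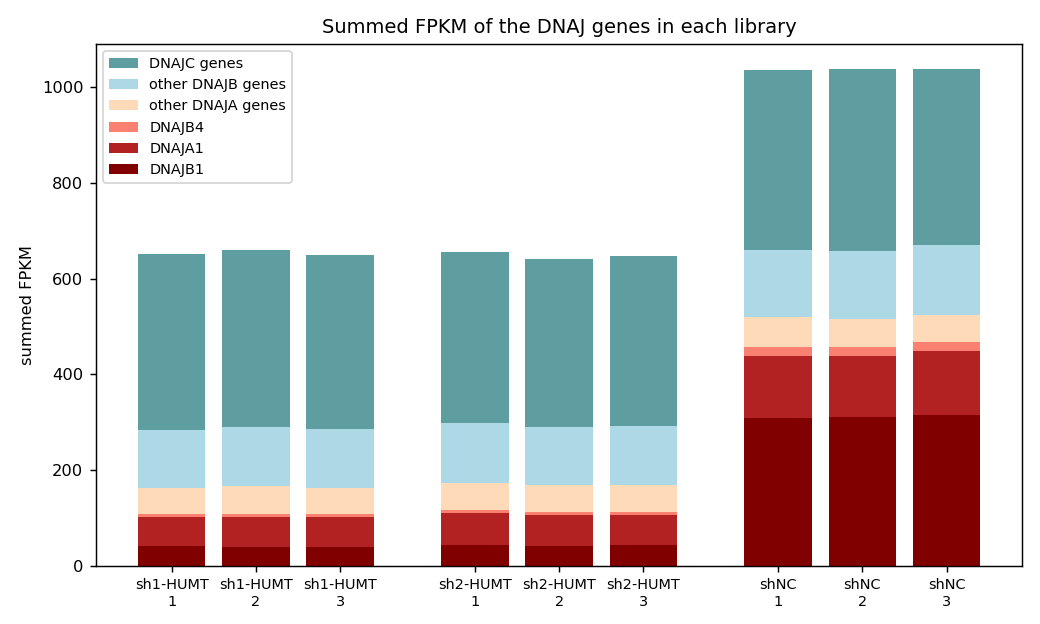
Summed FPKM of the 44 DNAJ genes in each library, stacked by gene or subfamily, with sh1-HUMT and sh2-HUMT libraries left of shNC libraries. Family sums are 649.7 to 659.95 FPKM in sh1-HUMT and 641 to 655 FPKM in sh2-HUMT libraries, against 1035 to 1038 FPKM in shNC libraries, and most of the gap is DNAJB1.

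The HSP70 machines that the DNAJ proteins serve were examined by compartment, beside the 16.3% and 16.5% of all genes called lower, the 15.7% and 15.9% called higher and the 12.8% called lower in both. Of 7 cytosolic HSP70 genes 4 were called lower in both comparisons: HSPA1A was at 57.9 ± 2.63 and 74.9 ± 1.02 against 1120.4 ± 2.98 CPM, HSPA1B at 45.6 ± 4.39 and 59.7 ± 1.704 against 927 ± 14.8 CPM and HSPA6 at 0.388 ± 0.214 and 0.331 ± 0.224 against 197 ± 4.49 CPM, all inducible forms, and the constitutive HSPA8 fell as well. The log2 fold changes were -4.27 and -3.90 for HSPA1A and -4.35 and -3.96 for HSPA1B, near-identical genes between which the estimation can split reads, and -8.97 and -9.20 for HSPA6. Of 10 HSP110 and exchange factor genes, which reset HSP70 by releasing ADP, 5 and 4 were called lower and 1 and 1 higher. The strongest were HSPH1 at -1.64 and -1.57, BAG3 at -1.01 and -0.90 and BAG2 at -0.42 and -0.39. Of 8 genes of the relay to HSP90, 6 and 5 were called lower. Those with the smallest adjusted p were HSP90AA1 at -1.13 and -1.20, PTGES3 at -0.24 and -0.24 and HSP90AB1 at -0.17 and -0.19. By size of change AHSA1, at -0.22 and -0.20, fell slightly more than HSP90AB1.

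In the endoplasmic reticulum system 4 of 5 genes were called lower in both comparisons, with HSPA5 (BiP, the HSP70 served by DNAJB9, DNAJB11, DNAJC3 and DNAJC10) at 65.5 ± 1.997 and 63.8 ± 3.45 against 139.7 ± 4.68 CPM. HSPA5 changed by -1.09 and -1.13 on the log2 scale, HYOU1 by -0.31 and -0.36 and HSP90B1 by -0.28 and -0.26. In mitochondria 5 of 6 genes of the HSP70 and HSP60 system were called lower in both, with HSPA9 (mortalin, the partner of DNAJA3) at -0.48 and -0.61, HSPD1 at -0.26 and -0.28 and HSPE1 at -0.59 and -0.38. Among J proteins outside the DNAJ names, the auxilin relative GAK was called higher in both, at 0.20 and 0.26 (edgeR adjusted p = 0.00168 and 2.46e-04), and HSCB and SEC63 in neither. Calls higher among the HSP70 machines, named after their values were seen, were BAG6 at 0.13 and 0.12 and the exchange factor SIL1 at 0.13 and 0.14 in both comparisons, and HSPA2 in sh2-HUMT only, at 0.045 and 0.25.

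Between the hairpin groups no member was called by edgeR (sh2-HUMT against sh1-HUMT), where 0.286% of all genes were. At an unadjusted p under 0.05 there were 5 members, DNAJB9, DNAJC7, DNAJB1, DNAJC2 and DNAJA1, and the smallest adjusted p was 0.11 for DNAJC7. DESeq2, which called 3.83% of the 9554 genes it gave an adjusted p in this comparison and 2.03% lower (edgeR called 0.178% of all genes lower), called 2 of those members lower in sh2-HUMT than in sh1-HUMT: DNAJC7 at -0.14 (adjusted p = 0.0177) and DNAJC2 at -0.19 (adjusted p = 0.0287). For DNAJB1 the edgeR difference was 0.10 (95% interval 0.038 to 0.17), small beside its fall in either group.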

How the data were processed

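RNA sequencing counts of 9 PC9/GR libraries in 3 labelled groups of 3 were used. The authors deposited estimated counts per gene with decimals. Per the submitters' processing notes, RSEM 1.2.12, DESeq2 1.4.5, HISAT2 2.0.4 and Bowtie2 2.2.5 were used, in steps the notes do not name; the build is not given in the sources here. A second set of deposited columns has no unit in the header and was read as FPKM, because count over value gave nearly 1 length per gene across libraries (median coefficient of variation 1.67% over 7087 genes with more than 500 counts in every library). Another 6 columns of group averages were not used.

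Counts were rounded and tested with edgeR 4.0.16 in R 4.3.3: filterByExpr by group, TMM (factors 0.968 to 1.02), and the robust quasi-likelihood test of 3 group means over 9 libraries, with Benjamini-Hochberg adjustment over 18540 genes, threshold 0.05 and a biological coefficient of variation of 7.02%. CPM used TMM-scaled library sizes. Alternatives were DESeq2 1.42.0 and the settings named under the processing section; the GC content and length correction (a spline with 5 degrees of freedom, values for 83.9% of genes tested) and removal of the 2 most abundant entries are among them, the correction chosen after seeing the data. Per-library values are given for members called with an absolute log2 fold change of at least 0.25 in either comparison and for the heat shock and unfolded protein response members; partner lists name up to 3 genes with the smallest adjusted p, and 1 gene of these lists is not reported here. Members and lists were chosen with earlier results of these data known, and lists were described by counts and medians with no test of a list. Compartments and roles are from textbooks. Promoter windows are from RefSeq, GRCh38.p14. The steps were tested on simulated counts. The series' design text describes a different study and was not used, and some titles spell the target HUNT.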

Additional observations from a re-analysis of the deposited data

How the results depend on the processing

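Across the 18 alternatives, the falls of DNAJB1, DNAJA1, DNAJB4, DNAJB6, DNAJB9, DNAJB11, DNAJC1, DNAJC3 and DNAJC10 and the rise of DNAJC22 kept their direction and their call in both comparisons. Of the gene values under alternatives, 830 kept direction and call, 40 lost and 21 gained a call, and 9 turned direction. These values, and the turns of direction listed below, cover only part of the tested members. DNAJB14, DNAJC11 and DNAJC14, for example, were not followed. The 13 members called in both comparisons numbered 10 to 15 with a library left out, DNAJC8 being lost most often, and the count fell to 10 without shNC replicate 1, where DNAJC7 and DNAJC9 were lost as well.

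Requiring a log2 fold change of at least 1 left 361 genes for sh1-HUMT, 372 for sh2-HUMT and 2 between the hairpin groups, and 3 members lower in each comparison and in both, with 0 higher. Members higher in sh2-HUMT were 2 under DESeq2, its size factors, upper-quartile normalization, no filter, a mean count of at least 10, only the 2 groups compared and without the 2 most abundant entries, and 3 under the GC content and length correction; leaving out a library gave 1 to 2. Between the hairpin groups 366 genes were called by DESeq2, 29 with the replicate block and 35 with only the 2 groups compared, and 1 to 155 with a library left out, 155 of them without sh1-HUMT replicate 2 and 1 without sh2-HUMT replicate 1; DESeq2 called 2 members there.

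Median log2 fold changes kept their sign. For sh2-HUMT the median of all members was -0.099 with upper-quartile normalization, -0.13 with the GC content and length correction and -0.13 to -0.097 with a library left out. The DNAJA median in sh2-HUMT was -0.065 with the correction and -0.12 to -0.069 with a library left out (-0.069 without shNC replicate 1). The DNAJB median was -0.42 in sh1-HUMT with a mean count of at least 10, and in sh2-HUMT -0.27 with the correction and -0.40 to -0.27 with a library left out. The DNAJC median in sh2-HUMT was -0.067 with upper-quartile normalization, -0.067 with a mean count of at least 10, -0.068 with only the 2 groups compared, -0.10 with the correction and -0.10 to -0.054 with a library left out (-0.054 without sh2-HUMT replicate 1). The cytosolic median in sh1-HUMT was -0.17 to -0.094 with a library left out, and the mitochondrial one in sh2-HUMT -0.16 with upper-quartile normalization and -0.21 to -0.12 with a library left out.

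Values that turned direction, none of them called afterwards, were DNAJA2 in sh1-HUMT (0.013 with upper-quartile normalization, 0.073 with the correction, and -0.016 to 0.013 with a library left out, being above 0 without sh1-HUMT replicate 1 or shNC replicate 1) and in sh2-HUMT (0.043 with the correction), DNAJB5 in sh1-HUMT (-0.059 to 0.14 with a library left out, being below 0 without sh1-HUMT replicate 2 or shNC replicate 3) and DNAJC8 (0.020 in sh1-HUMT and 0.016 in sh2-HUMT with the correction). The cause of these changes was not tested. Same-numbered libraries deviated from their group means with correlations of -0.025 to 0.050, and 4 of 9 libraries correlated best with their own number, so the numbers were not taken to pair libraries; with the replicate block 13 members were called in both comparisons, 12 of them the same, with DNAJC8 lost and DNAJC24 gained, and the sh1-HUMT call of DNAJA3 was lost (edgeR adjusted p = 0.0631). No scaling moved the median of all genes by as much as 0.02. Depth limits DNAJA4, DNAJB13, DNAJC5G and DNAJC28, which had under 30 counts in each library.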

Other observations

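The transcript length that the deposited columns imply for a gene (estimated count over FPKM, scaled by the library total) was compared between groups. Of 25 members with more than 500 counts in every library, 6 (24.0%) had all libraries of both hairpin groups on the same side of all shNC libraries, a share near the 18.8% of 7087 such genes. Among those 6, implied lengths were shorter in sh1-HUMT and sh2-HUMT than in shNC by percentage differences of -8.42% and -5.07% for DNAJC7, -7.28% and -7.38% for DNAJB6, -3.04% and -3.82% for DNAJB2 and -2.98% and -2.43% for DNAJB11. They were longer by 1.38% and 1.81% for DNAJB1 and 1.92% and 2.82% for DNAJC12. For DNAJC7 this sets the scales apart: mean CPM was 95.3 in sh1-HUMT and 103 in shNC libraries, whereas mean FPKM was 47.6 ± 2.01 in sh1-HUMT and 45.5 ± 1.34 in shNC libraries. DNAJB6 was lower on both scales, but in proportion less so in FPKM. It was at 40.1 ± 0.932 and 39.9 ± 1.79 against 48.1 ± 1.54 FPKM, and at 82.2 ± 1.31 and 81.8 ± 2.03 against 110 ± 4.31 CPM. None of the alternatives used the implied length of each library. Which isoforms these lengths reflect was not tested.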
